A study of Mus musculus with 14 samples.

Results

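Among 86652 CTCF sites of mouse embryonic stem cells and their differentiating progeny, 1234 had a peak in each of the 4 wild-type (WT) lists and in none of the 4 CTCF-K20R lists. Sites were made by merging peaks of all 8 CTCF lists that overlapped by at least 1 bp. The 1234 sites were 2.72% of the 45379 sites present in all 4 WT lists. They were chosen by the presence and absence of called peaks, so the share, and every difference between WT and K20R at these sites, is a description and not a result. Of them, 1179 lay outside chr14:40-70 Mb (mm10), where they were 2.64% of 44727 sites, and 55 lay inside it, where they were 8.44% of 652 sites. They are called K20R-absent sites here, which says that no peak was called in K20R and not that no CTCF was bound.

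The cells were the mESC line E14Tg2A with unmodified CTCF (WT) or with lysine 20 of endogenous CTCF replaced by arginine through CRISPR/Cas9 (CTCF-K20R). Both genotypes were profiled at day 0, as mESCs kept on inactivated feeder fibroblasts with LIF and the 2i inhibitors, and at day 4, as embryoid bodies (EBs) formed in hanging drops in serum without LIF. CTCF ChIP-seq had 2 biological replicates per genotype and day, and H3K27ac ChIP-seq had 1 library per genotype at day 4. How many edited clones stand behind the K20R libraries is not given, so genotype and clone cannot be told apart.

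CTCF is a zinc finger protein that reads a long, partly degenerate DNA motif and halts loop-extruding cohesin there, which sets chromatin loops and domain borders. Occupancy differs widely between sites, with strong sites bound in almost every tissue and weak sites often bound in some tissues only. Lysine and arginine carry the same charge, but arginine in this position cannot be acetylated, and the lysine lies in the amino-terminal part of CTCF, outside its zinc fingers.

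The DNA under K20R-absent sites is shown first, because it differed most plainly from that of sites kept in K20R. A 19 bp matrix was learned from the strongest sites in all 8 lists, and each site received its best match within 100 bp of the summit, read on the strand of the match. The first group holds K20R-absent sites that were among the strongest in WT overall or near a protein-coding start, and the second the 3 K20R-absent sites with the highest motif scores. Sequences at Psrc1, Ifng and Gm10447, which the rule for the first group also picked, are not printed. The third holds 4 sites of all 8 lists with high scores and mean WT percentiles of 29.8 to 38.8, chosen after the data were seen. A name after "near" is that of the nearest protein-coding gene, up to 250 kb away. Capitals mark the 19 bp match, lower case the 30 bp on each side, and positions are counted from 1 at the first capital (GRCm38, strand in brackets).
Kcp intron, K20R-absent, chr6:29501762-29501840 (-): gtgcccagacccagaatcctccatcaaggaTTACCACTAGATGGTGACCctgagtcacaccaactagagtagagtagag
Krt7 intron, K20R-absent, chr15:101421072-101421150 (-): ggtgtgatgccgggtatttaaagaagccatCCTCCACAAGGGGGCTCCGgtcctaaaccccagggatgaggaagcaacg
Intergenic near Cryaa, K20R-absent, chr17:31751370-31751448 (+): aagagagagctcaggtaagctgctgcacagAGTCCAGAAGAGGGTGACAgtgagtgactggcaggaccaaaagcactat
Intergenic near Cdc7, K20R-absent, chr5:106996040-106996118 (+): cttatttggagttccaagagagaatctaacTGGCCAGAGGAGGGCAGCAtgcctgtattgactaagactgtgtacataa
Gprc5c intron, K20R-absent, chr11:114869209-114869287 (-): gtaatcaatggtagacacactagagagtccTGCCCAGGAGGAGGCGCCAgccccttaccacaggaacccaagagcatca
Intergenic near LTO1, K20R-absent, chr7:144914339-144914417 (-): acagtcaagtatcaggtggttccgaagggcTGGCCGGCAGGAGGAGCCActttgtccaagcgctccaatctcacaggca
Intron near Tmem109, K20R-absent, high score, chr19:10880294-10880372 (-): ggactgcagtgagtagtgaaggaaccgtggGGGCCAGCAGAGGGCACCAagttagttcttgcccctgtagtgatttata
Intergenic near Hnrnpa3, K20R-absent, high score, chr2:75671040-75671118 (-): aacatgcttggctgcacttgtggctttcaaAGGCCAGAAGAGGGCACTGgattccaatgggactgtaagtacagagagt
Intron near Ankrd40, K20R-absent, high score, chr11:94348910-94348988 (+): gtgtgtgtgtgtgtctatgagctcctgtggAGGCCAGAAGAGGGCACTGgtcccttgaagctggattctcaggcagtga
Intergenic near Zfp703, all 8 lists, chr8:26939188-26939266 (-): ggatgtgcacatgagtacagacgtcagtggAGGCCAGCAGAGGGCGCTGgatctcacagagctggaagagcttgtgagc
Intergenic near Zbtb40, all 8 lists, chr4:137152512-137152590 (-): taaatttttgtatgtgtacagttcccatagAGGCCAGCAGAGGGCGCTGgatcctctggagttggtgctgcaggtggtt
Intron near C1qtnf1, all 8 lists, chr11:118443338-118443416 (-): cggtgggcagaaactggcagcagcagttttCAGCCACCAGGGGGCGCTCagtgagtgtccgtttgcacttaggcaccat
Intergenic near Prr32, all 8 lists, chrX:45340824-45340902 (-): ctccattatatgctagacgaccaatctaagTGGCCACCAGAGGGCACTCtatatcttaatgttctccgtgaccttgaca
Of the 9 K20R-absent sequences, only that in Gprc5c had CG at positions 15 and 16, against 3 of the 4 sequences from sites in all 8 lists. The 4 were picked by score, to which these bases contribute, and most of the 9 by WT signal. The counts therefore only describe the printed sequences. The matches near Hnrnpa3 and Ankrd40 were identical, both inside masked repeats, and differed from the match near Zfp703 and Zbtb40 by A8C and A16G, giving the base of the K20R-absent match first. The second of these changes turns CA at positions 15 and 16 into CG.

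K20R-absent sites were weak CTCF sites in WT. Fold enrichment is the fragment pileup at the summit over the local background as the peak caller gave it, and pileup is the whole number of fragments recovered from it. Over the 1234 sites, the lowest, median and highest pileup were 5, 15 and 48 in WT day 0 replicate 1 and 5, 10 and 23 in WT day 0 replicate 2. They were 5, 13 and 45 in WT day 4 replicate 1 and 5, 13 and 46 in WT day 4 replicate 2. The lowest pileup called as a peak was 5 in every one of the 8 lists. By −log10 q, 40 K20R-absent sites had a value under 2 in any WT list and 530 had 5 or more in all 4. The lowest of the 4 WT values had a median of 4.61 over the sites. These values belong to the calls that chose the sites.

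Sites in all 8 lists were much stronger in the same libraries. Their median fold enrichment was 25.6, 15.2, 19.4 and 19.5 in WT day 0 replicates 1 and 2 and day 4 replicates 1 and 2. At K20R-absent sites it was 8.63, 5.65, 6.84 and 7.09. The mean pileup over the 4 WT lists had a median of 12.75 at K20R-absent sites and of 42 at the 36440 sites in all 8 lists. Ranked by fold enrichment within each list, K20R-absent sites had a median mean WT percentile of 24.8, against 69.8 for sites in all 8 lists. The ranges overlapped, since 60 K20R-absent sites had a mean WT pileup of 20 or more and 157 had one under 10.

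**Figure D1:**
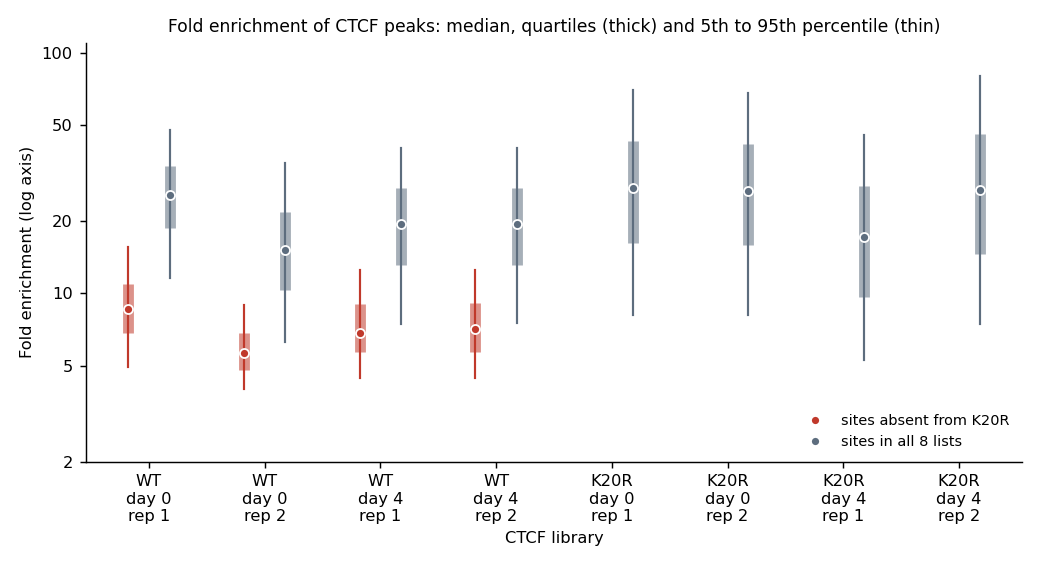
Fold enrichment (log axis) by CTCF library for the 1234 K20R-absent sites (red, WT lists only, since K20R lists hold no peak there) and the 36440 sites in all 8 lists (grey), with points at the median, thick bars for the quartiles and thin bars from the 5th to the 95th percentile. K20R-absent medians ran from 5.65 to 8.63, below the lower quartile of sites in all 8 lists in every WT library.

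WT day 0 replicate 2 set the limit for most K20R-absent sites. It gave the lowest of the 4 WT pileups, alone or tied with a day 4 library, at 783 sites (63.5%). The counts were 123 for WT day 0 replicate 1, 169 for WT day 4 replicate 1 and 159 for WT day 4 replicate 2. A tie was counted once, for the day 0 library before day 4 and for replicate 1 before replicate 2. Just outside the rule, 3957 sites had a peak in 3 WT lists and no K20R list, and at 3255 of them the missing peak was that of WT day 0 replicate 2. Without that library the rule gave 4489 sites in place of 1234. This library had 52698 peaks, the fewest of the 4 WT lists.

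On the K20R side of the threshold, 1520 sites in all 4 WT lists had a peak in 1 K20R list. The single peak was in K20R day 0 replicate 1 at 535 sites, in day 0 replicate 2 at 476, in day 4 replicate 1 at 89 and in day 4 replicate 2 at 420. Its median pileup was 10, 10, 9 and 10 in these libraries, where the lowest called was 5. A K20R summit stood within 500 bp of 7 K20R-absent sites and within 1 kb of 72, and the median distance to the nearest was 7963.5 bp.

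Absence from K20R became rarer as WT pileup rose. It held for 11 of 22 sites with a mean WT pileup under 8 (50%, 95% Wilson interval 30.7-69.3), for 41.1% (36.1-46.3) at 8 to 10 and for 18.1% (16.3-20.0) at 12 to 14. At 20 to 30 it was 0.618% (0.477-0.799), or 57 of 9229 sites, and at 30 or more it was 3 of 26907. All Wilson intervals here cover counting error only, and sites are not independent of each other. The number of K20R lists with a peak followed the same order, with a median mean WT pileup of 12.75, 14.5, 16.5, 19 and 42 for sites in 0, 1, 2, 3 and 4 K20R lists.

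**Figure D2:**
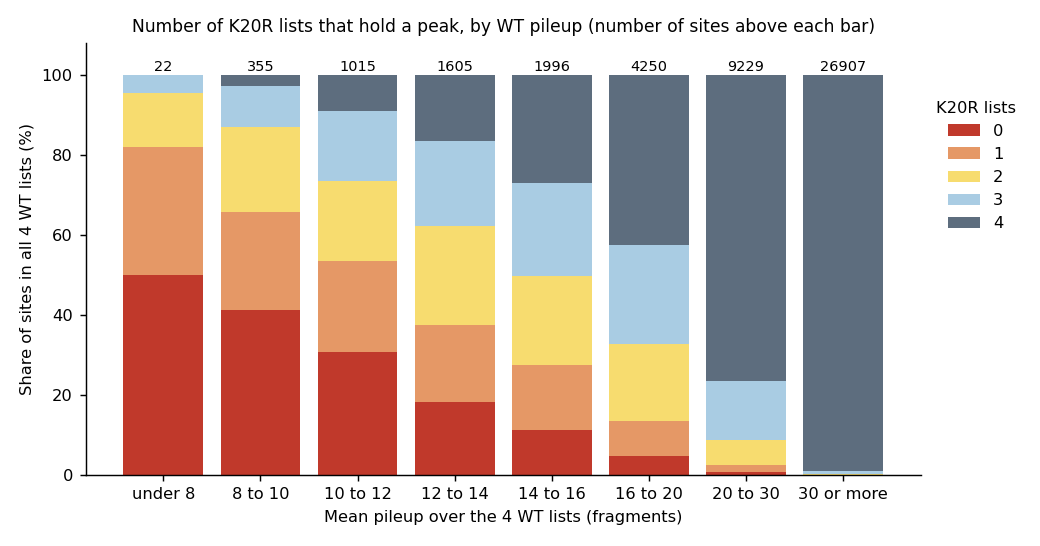
Share (%) of sites in all 4 WT lists that had a peak in 0 to 4 K20R lists, by mean WT pileup in fragments, with the number of sites above each bar. K20R-absent sites (red) fell from 50% of 22 sites under 8 to 3 of 26907 sites at 30 or more.

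The lists themselves differed in length, with 52698 to 77657 peaks in WT and 41360 to 52076 in K20R, although the same number of reads was drawn from each CTCF library. The highest fold enrichment was 90.9 to 105 in WT and 93.4 to 262 in K20R, and 3 of the 4 K20R libraries reached above 200. The mirror rule, a peak in all 4 K20R lists and in no WT list, gave 5 sites, or 0.0132% of 37774. With all 8 lists shortened to the 41360 peaks of highest −log10 p, K20R lacked 227 sites (0.685% of 33118, 0.602-0.780) and WT lacked 196 (0.563% of 34789, 0.490-0.648). Lacked means without a peak among those kept. Peaks of the full lists that fell below the cut may stand at such sites. Of the 227, 47 overlapped a K20R-absent site of the full lists (20.7%), which were 3.81% of the 1234. The unequal counts of the full lists thus moved with list length.

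The WT values of K20R-absent sites were also compared between days, among sites that the rule required to have a peak on both. The median percentile was 24.4 ± 14.8 (SD, n = 2) at day 0 and 25.1 ± 1.08 (SD, n = 2) at day 4, a difference of 0.69 percentile points (two-sided exact permutation test over libraries, p = 1, smallest possible p 0.33). With 2 libraries a day and a difference of -5.90 to 10.7 when 1 library was left out, the test cannot show whether the days differed. The mean percentile was higher at day 4 at 653 of the 1234 sites. Both day 4 values exceeded both day 0 values at 260 sites, and both lay below them at 175. The 2 day 0 replicates differed more from each other than the days did. Percentiles are ranks within a list, and these 2 lists held 77657 and 52698 peaks. How much of the gap follows list length was not tested.

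Across the K20R-absent sites, pileups of the 2 WT day 4 libraries moved together more closely than those of other pairs (r = 0.74, rho = 0.66, n = 1234 sites). WT day 0 replicates 1 and 2 gave r = 0.40, and pairs across days gave 0.27 to 0.32. These are correlations across sites that share libraries, given as a description. K20R-absent sites were 31.6% of the 3903 sites present in both WT and neither K20R list at day 0 (7.69% of 50765). They were 11.9% of the 10345 such sites at day 4 (18.8% of 55053).

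The strongest K20R-absent site outside the chromosome 14 segment lay in an intron of Kcp, which encodes a secreted modulator of BMP signalling. Its pileup was 46 and 23 in WT day 0 replicates 1 and 2 and 37 and 45 in WT day 4 replicates 1 and 2, at chr6:29501528-29502022. The second lay in an intron of Krt7, a keratin gene of simple epithelia, with pileups of 32, 19, 33 and 34 in the same order. Both were well above the limit in all 4 WT libraries, with the lowest value in day 0 replicate 2.

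An intergenic site 73.5 kb from Cryaa, a lens crystallin gene, had pileups of 30, 15, 38 and 43. A site in an exon of Gm12522, 2.93 kb from the start of Psrc1, had 34, 13, 40 and 30, and one in an exon of Olfr15, an olfactory receptor gene, lay 6 bp from its start and had 23, 16, 27 and 30. At these 3 sites day 0 replicate 2 was the lowest of the 4 WT libraries. An intergenic site 31.5 kb from Cdc7, a kinase gene of replication origin firing, was the most even of the strongest 10, with 26, 23, 24 and 25.

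The other 4 of the strongest 10 lay in an intron of Gprc5c, in an exon annotated to Gm49751 or Ifng, in an exon of Gm10447 and in an intron of Srbd1, with mean WT pileups of 22.75 to 23.5. Their individual WT values ran from 16 to 31. Ifng encodes interferon gamma, and the site lay 1.01 kb from its start with pileups of 22, 19, 21 and 29. In none of these 4 did the WT day 4 values both lie above both day 0 values.

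Near protein-coding starts outside the chromosome 14 segment, the 6 strongest K20R-absent sites were those at Psrc1, Olfr15, Ifng and Gm10447, one in an intron of Esr2 and an intergenic one near LTO1. Esr2 encodes the estrogen receptor beta, and its site, 2.04 kb from the start, had pileups of 28, 12, 23 and 23. The site at LTO1 lay 746 bp from its start and 116 bp from that of Bc1, a non-coding RNA gene, with 21, 14, 19 and 20. A K20R H3K27ac peak covered the latter and a WT one did not.

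K20R-absent sites held the CTCF motif less often than sites in all 8 lists, and their matches were weaker. A match above the score passed by 5% of sequences taken 1 kb away was present at 894 of 1234 K20R-absent sites (72.4%, 69.9-74.9) and at 90.0% (89.6-90.3) of sites in all 8 lists. Above the score passed by 1% of shifted sequences, the shares were 29.0% (26.5-31.6) and 66.8% (66.3-67.3). The 8-letter core AGGGGGCG, the most enriched 8-mer of the strongest sites, occurred on either strand within 100 bp of the summit at 25 K20R-absent sites (2.03%, 1.38-2.97). It occurred at 8.65% of sites in all 8 lists and in 0.456% of windows shifted by 1 kb. The matrix and the core were both learned from the strongest sites in all 8 lists, which favours that group in advance. How much this adds to the differences was not tested. The core ends in CG, so the motif, core and CG shares given here and below are not independent of each other.

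Since K20R-absent sites were weak in WT, the sequences were compared again among sites of mean WT percentile 20 to 40. This band held 771 K20R-absent sites and 2935 sites in all 8 lists, which still differed in strength, with median mean WT pileups of 13.75 and 17.5. The stricter motif was present at 30.6% (27.5-34.0) of the former and 56.3% (54.5-58.1) of the latter, and the core at 1.95% and 5.49%. Peaks in the 4 K20R libraries are also 4 further measurements of the same site, and how much this selection adds to the difference was not tested.

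A contrast lay at motif positions 15 and 16, the step where a CpG was most frequent among sites in all 8 lists, and it was examined after the data were seen. In the band, CG stood there in 84 of 574 matches of K20R-absent sites (14.6%, 12-17.8) and in 872 of 2461 matches of sites in all 8 lists (35.4%, 33.6-37.3). The share rose with the number of K20R lists, from 14.6% at 0 lists to 15.4%, 22.7%, 29.3% and 35.4% at 1, 2, 3 and 4 lists. In the narrower bands the values were 18% and 42.6% at percentile 20 to 30, and 9.57% and 33.0% at 30 to 40. The intervals of the 2 groups did not overlap in either of these bands. Among single bases in the band of 20 to 40, the largest differences lay at other positions. A at position 1 stood at 35.5% against 53.6%, and C at position 7 at 36.8% against 20.8%. In unmasked matches of that band these were 20.7% against 22.8%, and 52.9% against 43.7%. CG at positions 15 and 16 adds to the motif score, and the matches were not alike in score, with medians of 13.39 and 15.32 in that band.

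Over all motif matches, CG was present at this step in 16.3% (14.1-18.9) of K20R-absent sites and in 37.8% (37.2-38.3) of sites in all 8 lists. CA stood there in 447 of 894 matches of K20R-absent sites (50%, 46.7-53.3) and in 42.7% of matches of sites in all 8 lists. TG made up 8.72% and 5.63%, CT 5.03% and 2.06%, and CC 4.14% and 1.34%. No other step of the motif held CpG as often in either group.

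Within the K20R-absent sites, CG at positions 15 and 16 was rarer where WT pileup was higher. It was present in 32 of 103 matches (31.1%, 22.9-40.6) of sites with a mean WT pileup under 10 and in 2 of 49 (4.08%, 1.13-13.7) of sites with 20 or more. It was present in 22.3% (16.6-29.2) of matches of K20R-absent sites near a transcription start and in 15.0% (12.6-17.7) of the others. Inside the chromosome 14 segment it was 12 of 39 (30.8%, 18.6-46.4), against 35.9% (31.5-40.6) of matches of sites in all 8 lists there, so that with 39 matches the contrast was not seen in the segment.

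**Figure D3:**
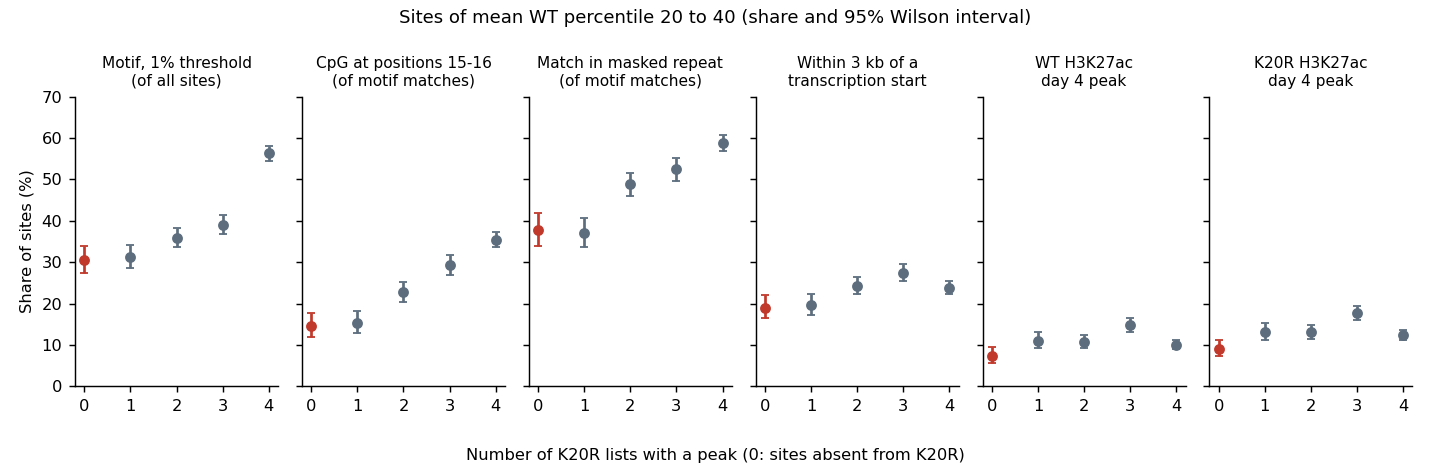
Share (%) of sites with each feature, with 95% Wilson intervals, among sites of mean WT percentile 20 to 40, by the number of K20R lists with a peak (0, red: K20R-absent sites). The share of matches with CG at positions 15 and 16 rose from 14.6% at 0 lists to 35.4% at 4, and that of sites with the stricter motif from 30.6% to 56.3%.

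A contrast at this step was also present when all lists had one length, a comparison added after the data were seen. Absent there means without a peak among those kept, and a weaker peak may stand in the full list. The sites then absent from K20R were mostly other sites, since 47 of 227 overlapped a K20R-absent site. Their median mean WT pileup was 21.5, against 12.75 at K20R-absent sites. CG was present in 17 of 191 matches of sites absent from K20R (8.90%, 5.63-13.8), in 76 of 170 matches of sites absent from WT (44.7%, 37.4-52.2) and in 38.6% (38.0-39.2) of matches of sites in all 8 lists. The stricter motif was present at 36.6% (30.6-43.0), 60.7% (53.7-67.3) and 69.1% (68.6-69.6) of these sites. The shares near a transcription start were 20.3%, 20.4% and 22.9%, with overlapping intervals between sites absent from K20R and sites absent from WT. With 227 and 196 sites the lists were near in size, and their CG shares had intervals that did not overlap. They were not alike in other ways. Masked matches made up 28.8% (22.8-35.6) at sites absent from K20R and 61.2% (53.7-68.2) at sites absent from WT. The median mean pileup was 21.5 in WT at the former and 16.5 in K20R at the latter. The part of these differences in the CG contrast was not tested.

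**Figure D4:**
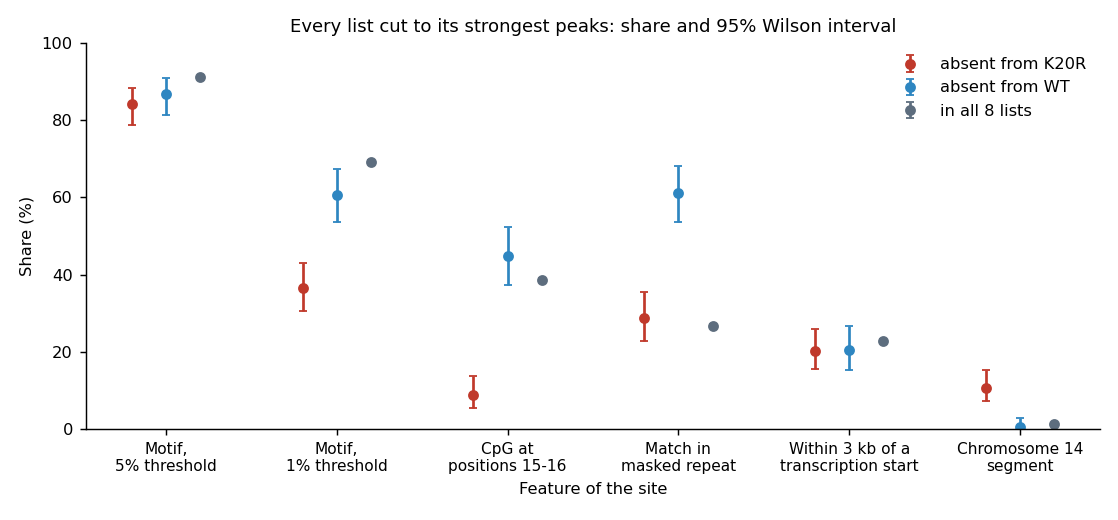
Shares (%) with 95% Wilson intervals among sites absent from K20R (red, 227), absent from WT (blue, 196) and in all 8 lists (grey, 30710) with all lists shortened to 41360 peaks. Absent means without a peak among those kept. CpG and repeat shares are of motif matches. CG at positions 15 and 16 stood at 8.90%, 44.7% and 38.6%.

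The flanks of the match carried less shared sequence at K20R-absent sites. Among unmasked matches in the band, the 10 bp before the match held 0.15 bits of information at K20R-absent sites and 0.50 bits at sites in all 8 lists, and the 10 bp after it 0.10 and 0.35 bits. The 19 bp themselves held 14.4 and 15.4 bits. In these unmasked matches CG at positions 15 and 16 was present in 14.6% (11.3-18.6) and 33.1% (30.2-36.0), so the contrast was not limited to repeats.

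**Figure D5:**
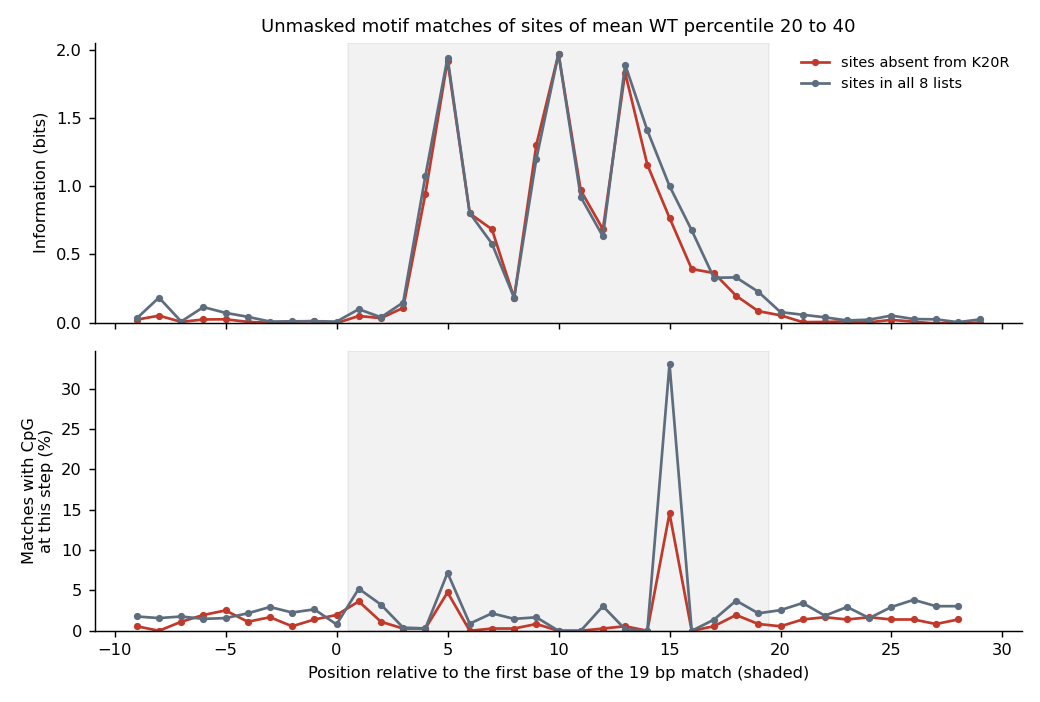
Information (bits, top) and share of matches with CpG at the step that starts at each position (%, bottom), by position relative to the first base of the 19 bp match (shaded), for unmasked matches of K20R-absent sites (red) and sites in all 8 lists (grey) of mean WT percentile 20 to 40. The curves part most at position 15 of the lower panel, with 14.6% against 33.1%.

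Repeats supplied many of the matches. The match was mostly masked as repeat in 349 of 894 K20R-absent sites (39.0%, 35.9-42.3) and in 30.1% of sites in all 8 lists. In the band the order turned, with 37.8% (33.9-41.8) and 58.7% (56.8-60.6). Both orders are given because weak sites in all 8 lists were themselves rich in repeats.

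A few identical 19 bp matches recurred, all of them masked as repeats, and are shown because single bases set them apart.
Match A: ACTCCAGAAGAGGGCGTCA
Match B: ACTCCAGAAGAGGGCGCCA
Match C: AGGCCAGAAGAGGGCATCA
Match D: AGGCCAGAAGAGGGCACCA
Match A occurred at 14 K20R-absent sites and 18 sites in all 8 lists. Match B, which differs from it by T17C, occurred at 1 K20R-absent site and 207 sites in all 8 lists. Match C occurred at 13 K20R-absent sites and 497 sites in all 8 lists, and match D, again T17C away, at 1 and 323. The matches numbered 894 at K20R-absent sites and 32782 at sites in all 8 lists. As shares of these, match A made up 1.57% and 0.0549%, and match B 0.112% and 0.631%. Match C made up 1.45% (0.852-2.47) and 1.52% (1.39-1.65), which overlap, and match D 0.112% and 0.985%. In the percentile band, matches A and B stood at 11 and 64 sites in all 8 lists, and matches C and D at 72 and 41. These pairs were picked after their counts were seen. Over all matches in the band, T at position 17 was not more frequent at K20R-absent sites, with 27.5% against 36.6%.

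K20R-absent sites lay in introns more often and between genes less often than sites in all 8 lists. By the summit, 54.5% (51.7-57.2) were in introns, 37.2% (34.5-39.9) intergenic and 8.35% (6.93-10.0) in exons, against 48.4% (47.9-48.9), 43.8% (43.3-44.3) and 7.80% of sites in all 8 lists. A transcription start stood within 3 kb of 258 K20R-absent sites (20.9%, 18.7-23.3) and of 23.0% (22.5-23.4) of sites in all 8 lists. Within the band it was 19.1% (16.4-22.0) and 23.8% (22.3-25.4), intervals that did not overlap.

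Acetylation of histone H3 at lysine 27 (H3K27ac), which is found at promoters and enhancers in use, covered few K20R-absent sites in day 4 EBs. A WT H3K27ac peak overlapped 120 of 1234 (9.72%, 8.19-11.5) and a K20R peak 140 (11.3%, 9.69-13.2), against 11.7% and 15.2% of sites in all 8 lists. Both genotypes had a peak at 92 sites, WT alone at 28 and K20R alone at 48. With 1 H3K27ac library per genotype, differences between them have no replicate check, and their order turned (5.02% in WT, 4.62% in K20R) when H3K27ac peaks had to reach −log10 q of 5. In the band the WT shares were 7.39% (5.75-9.46) and 9.98% (8.95-11.1), which overlap, and the K20R shares 9.08% (7.25-11.3) and 12.4% (11.2-13.6), which overlap by a little.

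Promoter-near K20R-absent sites carried the mark more and the motif less than the others. H3K27ac of WT covered 20.2% (15.7-25.5) of the 258 and 6.97% (5.53-8.74) of the other 976. The motif was present at 64.3% (58.3-69.9) and 74.6% (71.8-77.2). The 340 K20R-absent sites without a motif had a transcription start within 3 kb in 27.1% (22.6-32.0) of cases and a WT H3K27ac peak in 15.3% (11.9-19.5), against 18.6% and 7.61% of those with a motif.

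The 5 strongest K20R-absent sites under H3K27ac outside the segment lay in exons of P4htm or the overlapping Gm49209, of Flad1 and of Dnajb2, in an intron of Maml1 and between genes near LTO1. P4htm encodes a transmembrane prolyl hydroxylase, Flad1 the synthase of FAD, Dnajb2 a co-chaperone and Maml1 a coactivator of Notch signalling. Their pileups in WT day 0 replicates 1 and 2 and day 4 replicates 1 and 2 were 33, 18, 19 and 19 at P4htm, and 17, 10, 23 and 28 at Dnajb2. At P4htm day 0 replicate 1 was high, while at Dnajb2 both day 4 values exceeded both day 0 values. H3K27ac peaks of both genotypes covered the sites at P4htm, Flad1 and Dnajb2, and a K20R peak alone those at Maml1 and LTO1.

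Few genes of the developmental lists had a K20R-absent site nearby. A K20R-absent site lay within 50 kb of the start of 2144 of 21911 protein-coding genes (9.79%). The same held for 4 of 36 mesoderm and cardiac genes, 2 of them without the chromosome 14 segment, for 2 of 24 pluripotency genes and for 3 of 20 ectoderm and endoderm genes. The counts were 3 of 30 imprinted genes, 1 of 21 genes of the CTCF, cohesin and acetylation machinery and 1 of 22 clustered protocadherin and Hox genes. With so few genes in each list, these counts say little beyond the share over all genes.

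The mesoderm and cardiac genes were Tbx6, a T-box factor of presomitic mesoderm, 6.11 kb away, Ryr2, the cardiac calcium release channel, at 36.4 kb, and the neighbouring cardiac myosin genes Myh6 and Myh7. The sites nearest to Myh6 and Myh7, at 30.5 and 33.3 kb, were 2 different ones, both inside the segment. The site near Tbx6 lay in an intron of Gdpd3 with pileups of 18, 8, 24 and 12, and H3K27ac peaks of both genotypes covered it. The pluripotency genes were Dnmt3b, a de novo DNA methyltransferase, at 10.5 kb and Lin28a, an RNA-binding regulator of let-7, at 28.7 kb. Olig2, a factor of neural progenitors, had one 8.20 kb away with pileups of 18, 15, 17 and 23, and Sox1 and Zic2 had one farther off.

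All 3 imprinted genes had their site within 10 kb, which held for 548 of 21911 protein-coding genes (2.50%), and with 3 of 30 genes nothing is read from it. At Dlk1, a paternally expressed inhibitor of adipogenesis, the site lay 75 bp from the start, in an intron, with pileups of 11, 15, 7 and 9. At Nnat the site lay 1.35 kb away inside an intron of Blcap, with 11, 10, 10 and 11, and at Kcnq1 9.39 kb away with 14, 7, 12 and 8. All 3 were weak, and at Dlk1 both day 4 values lay below both day 0 values. The remaining listed genes with a site within 50 kb were Kat8, a lysine acetyltransferase, and Hoxc4.

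Along the chromosomes, the share of sites in all 4 WT lists that were absent from K20R ran from 1.84% on chromosome 19 to 3.35% on chromosome 15 among autosomes other than 14. Chromosome 14 outside the segment had 3.26% (2.33-4.54), within the range of the others, while the segment had 8.44% (6.54-10.8). Chromosome X had 1.72% (1.09-2.70), and on chromosome Y 5 of 11 sites were absent (45.5%, 21.3-72.0). All K20R lists held 8 to 10 peaks on chromosome Y, and all WT lists 16 to 30.

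The segment also held fewer peaks of any kind in K20R, 1.16% to 1.2% of each list against 1.42% to 1.43% in WT. At its 455 sites in all 8 lists the median percentile was 81.4, 71.2, 76.8 and 77.9 in WT day 0 replicates 1 and 2 and day 4 replicates 1 and 2. In K20R it was 56.0, 55.6, 48.2 and 53.4 in the same order, below all WT values. Over the whole genome the medians of sites in all 8 lists were 64.9 to 76.2 in WT and 55.6 to 64.8 in K20R, so that within the segment the sites stood above the genome median in each WT library and below it in each K20R library. These lower ranks moved with the 55 K20R-absent sites there, and their part in them was not tested. The amount of DNA of the segment in K20R cells was not measured here, so fewer copies of it and less CTCF on each copy cannot be told apart, for the 8.44% as for the ranks.

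Within the segment the strongest K20R-absent site lay 73 bp from the start of Zfp219, a zinc finger gene, at chr14:52020394-52020827. Its pileup was 33, 10, 45 and 46 in WT day 0 replicates 1 and 2 and day 4 replicates 1 and 2, with H3K27ac of both genotypes and no motif match. The next were an intergenic site 1.34 kb from Trav4-3, in the T cell receptor alpha locus, with 29, 17, 26 and 25, and one 4.39 kb from Rnf17, a germ cell Tudor gene, with 24, 16, 24 and 26. Of the 55 sites, 21 had a transcription start within 3 kb (38.2%, 26.5-51.4), against 20.1% (17.9-22.5) of those outside and 26.6% (22.7-30.8) of sites in all 8 lists inside the segment, an interval that overlaps the first, while the motif share was 70.9% (57.9-81.2).

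K20R-absent sites were scattered. The median distance to the next one was 435 kb, with 143 of 1234 within 50 kb of another (11.6%) and 37 within 10 kb. A site of all 8 lists stood within 5 kb of 25.6% (23.3-28.1) of them, close to the 28.5% (28.0-28.9) of sites in all 8 lists that had another such site as near.

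Sites kept in K20R near a K20R-absent site were examined by their rank among the 36440 sites in all 8 lists. The median rank percentile of the 3402 sites within 50 kb of a K20R-absent site was 55.6 and 56.8 in WT day 0 replicates 1 and 2 and 54.8 and 54.9 in K20R day 0. The day 4 medians were 56.1 and 55.9 (WT) and 53.8 and 55.2 (K20R). The K20R mean lay 1.34 percentile points below WT at day 0 and 1.51 below at day 4, and 0.56 and 0.81 below without the chromosome 14 segment. These differences are of the contrast that chose the sites and carry no test.

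Sites lost at day 4 only formed a near comparison. They were 1573 sites with a peak in all 4 WT lists and both K20R day 0 lists but in neither K20R day 4 list. In the percentile band they had a median mean WT pileup of 15.75, against 13.75 for K20R-absent sites. In the same band, the stricter motif was present at 38.6% (35.7-41.7) of them against 30.6% (27.5-34.0) of K20R-absent sites. Masked matches made up 53.3% (49.8-56.9) against 37.8% (33.9-41.8), and CG at positions 15 and 16 stood in 21.0% (18.2-24.0) against 14.6% (12-17.8). None of these 3 pairs of intervals overlapped, while the groups still differed in WT pileup, whose part was not tested.

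The 5 mirror sites lay on chromosomes 1, 3, 9 and X, with Lyplal1, Vav3, Arhgap20, C2cd4b and Zxdb as the nearest protein-coding genes, 57.6 to 259 kb away. Their K20R pileups ran from 7 to 21. Their mean K20R percentiles ran from 9.52 to 23.0, below the median mean WT percentile of 24.8 at K20R-absent sites. They were thus weak sites in K20R.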

How the data were processed

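CTCF and H3K27ac ChIP-seq peak lists of 10 libraries were used, and 4 input libraries without peak lists were not analysed here. Per the methods and labels, the authors trimmed reads with Trim Galore, aligned them to mm10 with Bowtie2, removed low-quality, duplicate and blacklisted reads, drew the same number of reads from each CTCF library and called peaks per library with MACS2 (broad peaks for H3K27ac). Which input served as control is not given in the sources used here. The deposited lists hold an integer score (unused), a fold enrichment (ratio of pileup to local background), and −log10 p and q. Read depth is not in the lists, and peaks say nothing about sites below the limit.

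Whole-number pileups were solved from the deposited fold enrichment and −log10 p; all peaks with −log10 p under 200 gave a whole number within 0.01, and stronger peaks were ranked above them. The members, gene lists and named sites were chosen with earlier results of these data known. Sites were named by rule: the 10 strongest by mean WT percentile outside the segment, the 3 strongest inside, the 6 strongest within 3 kb of a protein-coding start and the 5 strongest under H3K27ac, both outside it, and those within 10 kb of a listed gene. The motif matrix was learned from 2000 sites. Genes came from GENCODE and sequence from RefSeq GRCm38. The steps were tested on simulated data, where lost sites had a higher expected WT pileup than most K20R-absent sites and only background in K20R. Calls missed near the limit were therefore not tested. Python 3.11.15, numpy 2.4.6, pandas 2.3.3 and scipy 1.17.1 were used. Alternatives covered peak thresholds, list length, site definition, distances and leaving out each library.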

Additional observations from a re-analysis of the deposited data

How the results depend on the processing

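The K20R-absent count changed most when lists were cut to one length and when WT day 0 replicate 2 was left out. It was 1233 and 1198 with peaks replaced by the wide or narrow summit window, 1175 when a peak within 500 bp counted as present, 1211 on autosomes and 960 with −log10 q of at least 5, but 227 with lists of one length. The mirror count was 196 with lists of one length and 10 with the narrow window. Leaving out one library at a time gave 1321 to 4489 K20R-absent sites (4489 without WT day 0 replicate 2) and 6 to 47 mirror sites (47 without WT day 0 replicate 1, 26 without K20R day 4 replicate 1).

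With −log10 q of at least 5 the median WT pileup was 15.25, the motif shares 75.5% (K20R-absent) and 90.6% (all 8 lists), the repeat share of matches 35.0%, the H3K27ac shares 8.13% (WT) and 9.38% (K20R) and the CG share 13.7%. With lists of one length these were 21.5, 84.1%, 91.0%, 28.8%, 6.61%, 5.29% and 8.90%, the segment share was 10.6% and the neighbour rank difference -3.47. The stricter score threshold gave motif shares of 29.0% and 66.8%, and a window of 50 bp 61.5% and 82.9%. Promoter shares within 1 kb were 8.83% and 11.8%. H3K27ac shares were 5.02% (WT) and 4.62% (K20R) with −log10 q of at least 5 for the mark, and 17.3% and 19.3% within 1 kb, so the order of the genotypes turned with the stricter limit, as it did with lists of one length. The neighbour difference was -0.68 without the segment.

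Over the fits without one library, the ranges were 21.1 to 26.1 for the WT percentile, 11.7 to 13.5 for the WT pileup, 70.8% to 73.6% and 88.8% to 89.9% for the motif, 36.2% to 46.5% for repeats, 19.4% to 24.6% and 22.8% to 23.4% for promoters, 8.75% to 12.5% and 10.1% to 14.2% for H3K27ac, -1.72 to -0.46 for neighbours (-0.46 without WT day 0 replicate 2), 3.01% to 4.39% for the segment and 15.7% to 17.7% for CG at positions 15 and 16. The day difference ran from -5.90 to 10.7 and changed sign in 5 of 8 fits: -5.90 without WT day 0 replicate 2, -0.32 and -0.33 without K20R day 0 replicate 1 or 2, and -1.65 and -1.70 without WT day 4 replicate 1 or 2. With the replicate number as a block it was 0.69 (exact permutation p = 1, smallest possible p 0.5), so the block changed no call. Correlations of same-numbered deviations ran from -0.03 to 0.27, the highest between K20R day 4 and WT day 0. They cannot show whether same-numbered libraries were prepared together, which the labels do not say. The cause of the shifts between fits was not tested.

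No pileup under 5 was called, so weaker binding was not detectable, and each group had 2 libraries. The alternatives for the CG share were added after the data were seen.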
